A study of Mus musculus with 5 samples.

Results

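The mitochondrial ribosomal protein genes, the nuclear genes named Mrpl for the large and Mrps for the small subunit of the ribosome inside mitochondria, were followed in RNA pulled down with SMN, the survival of motor neuron protein. A gene was taken as a member where an array probe set carried its symbol and no other gene's, and the brightest such probe set, by the mean over the 5 arrays, stood for the gene. This gave 77 members among 19937 genes with a probe set of their own, 48 named for the large and 29 for the small subunit. Mrpl53 shares its 1 probe set with Ccdc142 and was left out. All 77 members lay above the median probe set of every array.

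Mitochondrial ribosomes translate the few mRNAs of the mitochondrial genome, which encode subunits of the respiratory chain. Their RNAs come from mitochondrial DNA, whereas every one of their proteins is encoded in the nucleus, translated in the cytosol and imported. Some of these proteins have counterparts in bacterial ribosomes and others are found only in mitochondria. SMN is best known for assembling spliceosomal ribonucleoproteins.

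All arrays came from NSC-34, a mouse line made by fusing neuroblastoma with spinal cord cells and labelled as motor neuron-like. The FLAG-SMN IP group comprised 3 anti-FLAG precipitates from cells with the 3XFLAG-flSMN construct, and the control IP group 2 anti-FLAG precipitates from cells with no FLAG construct. Both kinds of cell were differentiated in 1% serum, given doxycycline at 3 µg/ml for 3 days and irradiated with ultraviolet light at 400 mJ/cm2 before lysis. The labels do not say from which species the SMN sequence comes, which promoter drives the construct, whether the line is a single clone or whether replicates were separate cultures, and RNA of the lysate before precipitation was not analysed here.

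Values are log2 signals after robust multi-array average (RMA) normalization, and differences are FLAG-SMN IP minus control IP on that scale. Smn1 was at 9.89, 9.50 and 9.46 in FLAG-SMN IP and at 8.10 and 7.64 in control IP (difference 1.74, SE 0.23; limma adjusted p = 0.0877). Across probe sets FLAG-SMN IP replicate 1 correlated less with its own group (Pearson r = 0.964 and 0.968) than replicates 2 and 3 did with each other (r = 0.989). Of the 11 neuron markers, the motor neuron gene Mnx1 (3.40 to 4.17 over the arrays) and the neuronal Stmn2 (2.72 to 3.67) lay below the medians of presumed control probe sets (4.30 to 4.55) on every array, and the cholinergic Chat was close to them (4.28 to 4.69). The motor neuron gene Isl1 (4.96 to 6.39) and the cholinergic Slc18a3 (5.21 to 5.56) lay above them on every array. The 11 neuron markers summed to between 58.1 and 66.0 log2 units in FLAG-SMN IP arrays and to 66.8 and 67.2 in control IP arrays. Of them 8 had a negative and 3 a positive difference, with Snap25 (-2.14) and Syp (-1.56) the lowest. The 4 measured noradrenergic markers summed to between 28.5 and 29.5, against 32.6 and 34.0. That gap came from Th (-1.94) and Dbh (-2.23), as Phox2a (-0.19) and Hand2 (-0.016) differed little. The 4 astrocyte markers summed to between 17.2 and 17.4, against 16.7 and 17.8. Sums for 3 oligodendrocyte, 4 microglia and 4 fibroblast markers overlapped between the groups, at 14.6 to 15, 18.4 to 19.0 and 21.5 to 22.2, against 13.6 to 15.1, 17.9 to 18.8 and 21.4 to 21.5. The part of these marker differences in the results on members was not tested. Fewer cells of a kind, less RNA per cell and less RNA precipitated cannot be told apart here, as lysate RNA was not analysed.

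No mitochondrial ribosomal protein gene passed the limma test with p-values adjusted across the 28187 probe sets (Benjamini-Hochberg), and the lowest adjusted p among the 77 members was 0.171. Among all genes 0.0301% passed, and among genes brighter than the median probe set 0.0464%. At an unadjusted p under 0.05, limma placed 8 members higher in FLAG-SMN IP, or 10.4%, and 5 lower, or 6.49%. The same call was made for 3.25% of all genes in the higher and 7.21% in the lower direction. Among the brighter genes, to which all members belong, it was made for 5.3% and 11.5%, or 16.9% in either direction, against 10.5% of all genes. The member differences spanned -1.07 to 1.1 with a median of 0.12, against 0.0019 for all genes and -0.032 for the brighter genes.

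The difference was smaller than 0.5 log2 units in either direction for 55 of 77 members (71.4%), against 85.1% of all and 75.5% of brighter genes. The 95% interval of the difference lay wholly between -1 and 1, that is within 2-fold either way, for 44 members (57.1%), against 76.5% of all and 61.8% of brighter genes. It reached 1 or more for 20 members (26.0%; 16.6% of brighter genes) and -1 or less for 14 (18.2%; 23.0% of brighter genes). All 3 FLAG-SMN IP arrays lay above both control IP arrays for 19 members (24.7%; 11% of all and 13.1% of brighter genes) and below both for 12 (15.6%; 14.8% of all and 20.3% of brighter genes), and the groups overlapped for the other 46.

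**Figure D1:**
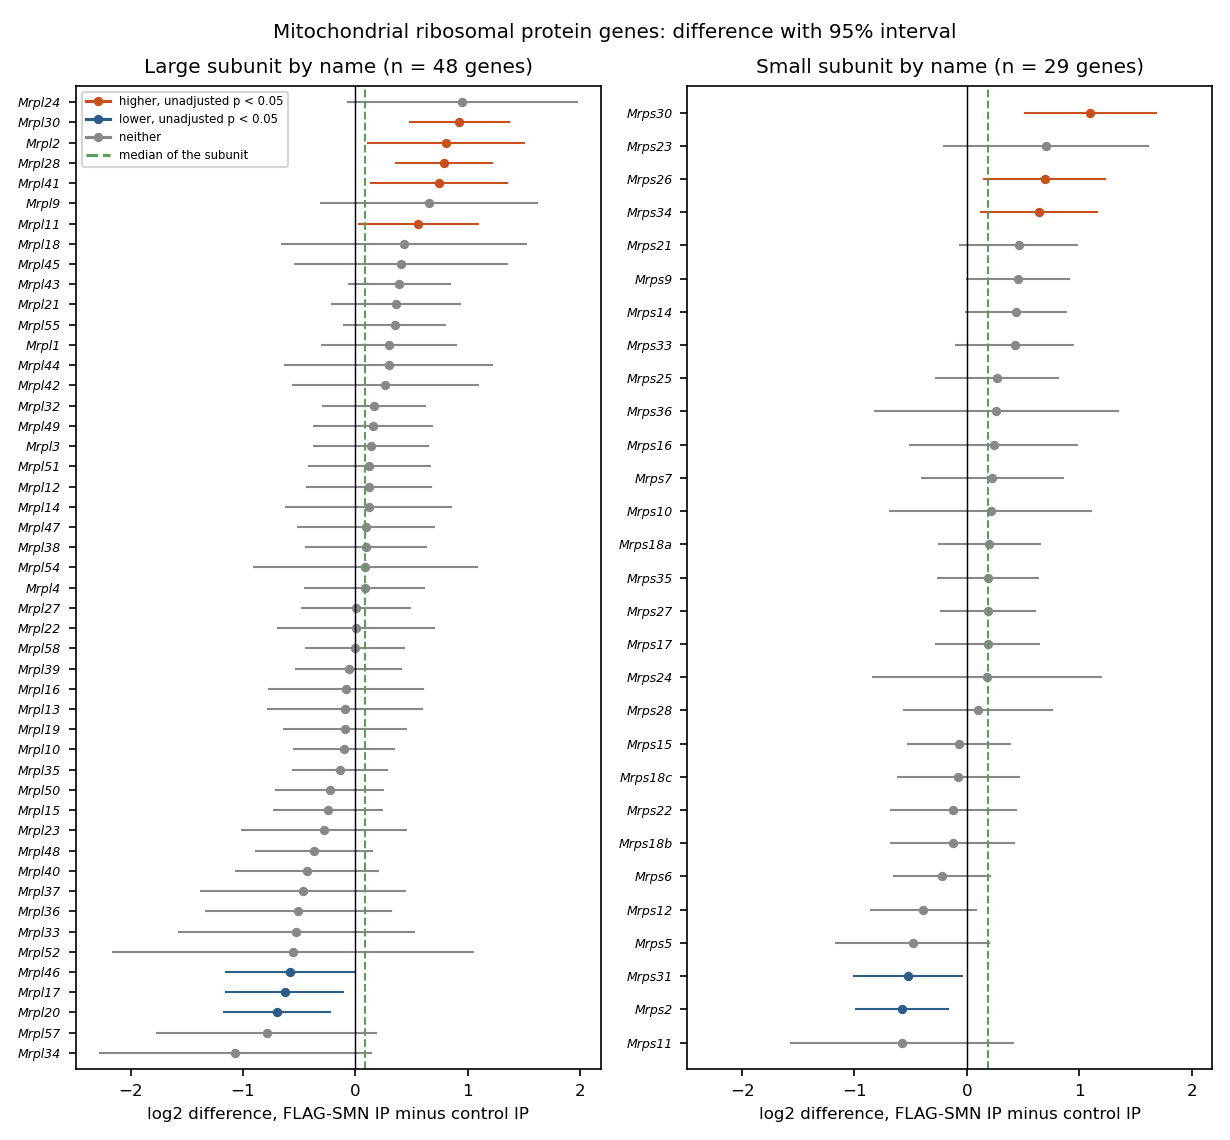
Each point is the log2 difference (FLAG-SMN IP minus control IP) of 1 gene and each line its 95% interval from the limma fit, with large subunit names on the left and small subunit names on the right. The dashed lines mark the subunit medians, 0.084 and 0.19, and the coloured points are the 8 higher and the 5 lower members by unadjusted p under 0.05, none of which passed the adjusted test.

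The start regions of the 3 higher and 3 lower members of smallest unadjusted p are printed as examples from both directions. They are RefSeq sequences of build GRCm38.p6, read 5′ to 3′ on the gene's strand from 120 bases before to 30 bases after the annotated start. Capitals mark matches, on either strand, to the NRF1 motif (GCGC, any 1 base, then TGCGC), the ETS motif CCGGAAG bound by GABP, or the YY1 motif AANATGGCG. These factors are known regulators of nuclear genes for mitochondrial proteins.
Mrpl30, higher, chr1:37890357-37890506, plus strand: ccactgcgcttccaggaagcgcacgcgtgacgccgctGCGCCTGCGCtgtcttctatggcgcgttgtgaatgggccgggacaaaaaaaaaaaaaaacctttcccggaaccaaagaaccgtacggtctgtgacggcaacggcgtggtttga
Mrps30, higher, chr13:118387223-118387372, minus strand: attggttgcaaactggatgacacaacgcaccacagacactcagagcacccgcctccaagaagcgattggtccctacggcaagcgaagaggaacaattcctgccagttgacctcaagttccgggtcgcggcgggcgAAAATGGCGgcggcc
Mrpl28, higher, chr17:26123383-26123532, plus strand: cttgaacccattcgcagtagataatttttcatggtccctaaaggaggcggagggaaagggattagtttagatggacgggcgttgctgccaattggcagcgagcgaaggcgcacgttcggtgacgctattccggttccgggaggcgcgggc
Mrpl20, lower, chr4:155802758-155802907, plus strand: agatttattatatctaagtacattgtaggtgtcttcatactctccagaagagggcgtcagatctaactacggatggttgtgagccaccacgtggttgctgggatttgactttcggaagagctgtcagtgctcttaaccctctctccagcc
Mrps2, lower, chr2:28467946-28468095, plus strand: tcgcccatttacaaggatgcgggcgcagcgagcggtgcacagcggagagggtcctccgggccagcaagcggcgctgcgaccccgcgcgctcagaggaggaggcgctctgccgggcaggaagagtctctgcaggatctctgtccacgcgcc
Mrpl17, lower, chr7:105811058-105811207, minus strand: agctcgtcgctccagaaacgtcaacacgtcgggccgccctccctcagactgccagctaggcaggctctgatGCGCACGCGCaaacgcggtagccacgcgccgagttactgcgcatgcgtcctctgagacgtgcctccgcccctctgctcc

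Over windows of 300 bases, 250 before and 50 after the start, 68 members had a RefSeq sequence. The NRF1 motif was found in 13 of them (19.1%), the ETS motif in 24 (35.3%) and the YY1 motif in 11 (16.2%). Over all 27025 windows these shares were 4.78%, 9.12% and 2.51%, and over 42 cytosolic ribosomal protein genes 7.14%, 35.7% and 4.76%. At least 1 of the 3 motifs was present in 40 of 68 members (58.8%), against 45.2% of cytosolic ribosomal protein genes and 14.7% of all windows. It was present in 25 of 42 large subunit windows (59.5%) and 15 of 26 small subunit windows (57.7%). Among the 12 windows of members at an unadjusted p under 0.05 it was present in 4 (33.3%). An annotated start of C followed by at least 4 pyrimidines, the form of the terminal oligopyrimidine mRNAs to which cytosolic ribosomal protein mRNAs belong, was found in 0 of 68 members, 9 of 42 cytosolic ribosomal protein genes (21.4%) and 2.49% of all windows. These are counts of letters in fixed windows and say nothing of binding. The pyrimidine count misses cases, as most cytosolic ribosomal protein genes lacked the start although their mRNAs belong to that class. Thus 0 of 68 does not show its absence from the members.

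In the large subunit, 5 of 48 members (10.4%) were higher at an unadjusted p under 0.05, against 3.25% of all and 5.3% of brighter genes. Mrpl30, a counterpart of a bacterial large subunit protein, had 11.25, 11.10 and 11.05 in FLAG-SMN IP, against 10.33 and 10.08 in control IP. It had the smallest unadjusted p of all members, with a difference of 0.92 (SE 0.18; 1.90-fold; limma adjusted p = 0.171). Mrpl28, also of bacterial ancestry, had 8.53, 8.68 and 8.81 in FLAG-SMN IP, against 7.90 and 7.87 in control IP, a difference of 0.79 (SE 0.18; limma adjusted p = 0.207). In both genes the spread within each group was at most 0.18 (SD), which selection by p favours.

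Mrpl2 encodes the counterpart of the bacterial protein beside the peptidyl transferase centre, where peptide bonds form. It had 9.14, 8.25 and 8.51 in FLAG-SMN IP, against 7.98 and 7.69 in control IP, a difference of 0.80 (SE 0.29; limma adjusted p = 0.4). Mrpl41, a mitochondria-specific protein, had 8.0, 7.25 and 7.53, against 6.92 and 6.78 (difference 0.74, SE 0.25; limma adjusted p = 0.366). In both genes FLAG-SMN IP replicate 1 was the highest array, and without it the differences were 0.55 and 0.54. Mrpl11 sits at the base of the stalk that recruits translation factors, and had 8.91, 8.86 and 8.55 in FLAG-SMN IP, against 8.44 and 7.99 in control IP (difference 0.56, SE 0.22; limma adjusted p = 0.445).

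Another 3 large subunit members (6.25%) were lower at an unadjusted p under 0.05, against 7.21% of all and 11.5% of brighter genes. Mrpl20, of bacterial ancestry, had 8.05, 8.42 and 8.08 in FLAG-SMN IP, against 8.80 and 8.96 in control IP, a difference of -0.70 (SE 0.20; limma adjusted p = 0.283). Mrpl17, also of bacterial ancestry, had 7.95, 8.49 and 8.23, against 8.94 and 8.76 (difference -0.63, SE 0.22; limma adjusted p = 0.374). Mrpl46, a component of the central protuberance where the subunits meet, had 7.34, 7.28 and 7.84, against 7.91 and 8.23 (difference -0.58, SE 0.24; limma adjusted p = 0.469). The 3 genes had no array of FLAG-SMN IP as high as the lower control array, although for Mrpl46 the gap was narrow.

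Members with unremarkable p-values were named by their signal. Mrpl23, which lines the exit tunnel of the nascent peptide, had 10.39, 11.05 and 10.51 in FLAG-SMN IP, against 11.31 and 10.55 in control IP (difference -0.28; limma adjusted p = 0.893). Mrpl45, which in human cells tethers the ribosome to the inner membrane, had 7.42, 6.08 and 6.49, against 6.04 and 6.48 (difference 0.40; limma adjusted p = 0.867). Mrpl47, another exit tunnel protein, had 7.04, 6.75 and 6.79, against 6.41 and 7.13 (difference 0.094; limma adjusted p = 0.979). The groups overlapped in all 3 genes.

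In the small subunit 3 of 29 members (10.3%) were higher at an unadjusted p under 0.05, all without a bacterial counterpart. Another 2 (6.90%) were lower, against 3.25% of all genes higher and 7.21% lower. Mrps30, which ribosome structures place in the large subunit despite its name, had 6.95, 7.50 and 7.52 in FLAG-SMN IP, against 6.07 and 6.39 in control IP. Its difference of 1.1 (SE 0.25; 2.14-fold; limma adjusted p = 0.201) was the highest of all 77 members. Without FLAG-SMN IP replicate 1 it was 1.28 and passed (limma adjusted p = 0.0386), the 1 member that did so in any setting, where 1.15% of all genes passed. With any other array left out it did not pass.

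Mrps34, whose loss in humans destabilises the small subunit, had 8.47, 8.07 and 8.13 in FLAG-SMN IP, against 7.76 and 7.41 in control IP (difference 0.64, SE 0.22; limma adjusted p = 0.358). Mrps26 had 8.41, 7.78 and 8.07, against 7.42 and 7.37 (difference 0.69, SE 0.23; limma adjusted p = 0.345). In both genes replicate 1 was the highest FLAG-SMN IP array and the groups did not overlap.

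On the lower side, Mrps2, the counterpart of a bacterial small subunit protein, had 8.04, 8.01 and 7.95 in FLAG-SMN IP, against 8.66 and 8.49 in control IP. The spread of its FLAG-SMN IP arrays was 0.043 (SD, n = 3), and its difference was -0.58 (SE 0.17; limma adjusted p = 0.3). Mrps31, a mitochondria-specific protein, had 7.08, 7.34 and 7.50, against 7.74 and 7.93 (difference -0.53, SE 0.20; limma adjusted p = 0.426).

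Next by p were 3 members of bacterial ancestry with separated groups that missed the unadjusted call. Mrps9 had 8.58, 8.25 and 8.56 in FLAG-SMN IP, against 8.06 and 7.96 in control IP (difference 0.45; limma adjusted p = 0.482), and Mrps14 had 8.63, 8.62 and 8.44, against 8.26 and 7.99 (difference 0.44; limma adjusted p = 0.493). Mrps21 had 11.27, 11.22 and 10.76, against 10.67 and 10.58 (difference 0.46; limma adjusted p = 0.55). Mrps12, the counterpart of the bacterial protein at the decoding centre, lay on the other side, with 6.24, 6.30 and 6.63, against 6.75 and 6.80 (difference -0.39; limma adjusted p = 0.587). Mrps27, a pentatricopeptide repeat protein, had 6.70, 6.83 and 6.85, against 6.69 and 6.51 (difference 0.19; limma adjusted p = 0.858).

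**Figure D2:**
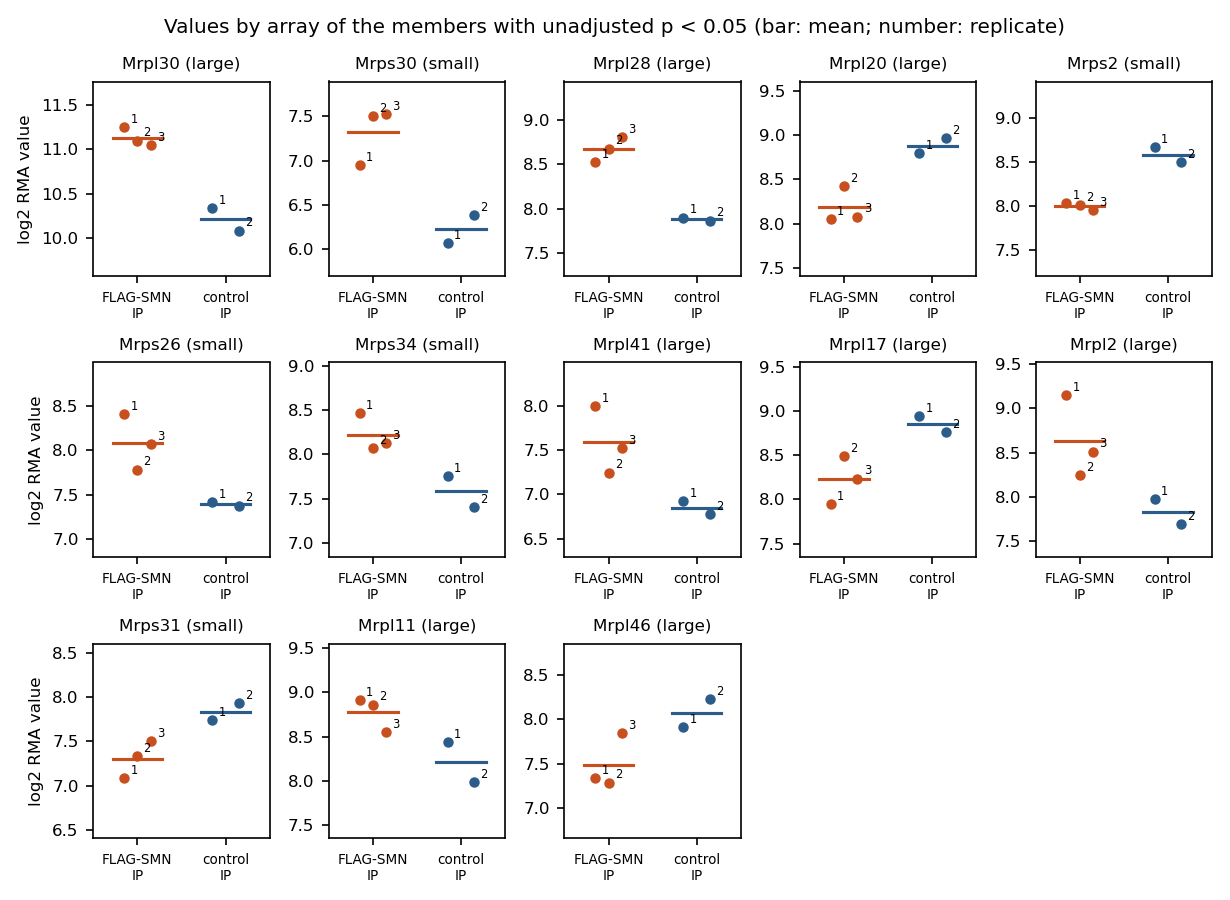
Each panel shows the log2 RMA values of 1 member in the 3 FLAG-SMN IP arrays (left) and the 2 control IP arrays (right), with the group mean as a bar, the replicate number beside each point and axes of equal span. The 13 members at an unadjusted p under 0.05 are shown, and in each of them the groups did not overlap. They were chosen by p on these same values, which favours separated groups, so the separation adds no support.

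The Mrps18 genes are 3 paralogs whose products occupy different places, that of Mrps18a in the large and those of Mrps18b and Mrps18c in the small subunit. Mrps18a had 10.45, 10.54 and 10.57 in FLAG-SMN IP, against 10.50 and 10.15 in control IP (difference 0.20, 95% interval -0.25 to 0.65). Mrps18b had 8.87, 9.35 and 8.98, against 9.39 and 8.99 (difference -0.13, 95% interval -0.68 to 0.42). Mrps18c had 9.68, 9.95 and 9.49, against 9.99 and 9.58 (difference -0.076, 95% interval -0.61 to 0.46). The groups overlapped in all 3, and each interval leaves out a 2-fold change in either direction.

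For 8 members more than 1 probe set carried the symbol, and in 2 of them the probe sets differed in sign. The brighter probe set of Mrpl51 had 10.24, 10.03 and 9.74 in FLAG-SMN IP, against 10.06 and 9.70 in control IP (difference 0.12; limma adjusted p = 0.958). Its other probe set had 7.19, 6.73 and 7.02, against 7.73 and 7.83 (difference -0.80; limma adjusted p = 0.238), with every FLAG-SMN IP array below both control arrays. The Mrpl27 probe sets gave 0.0061 and -0.074. For Mrpl41 the second probe set gave 0.13 (limma unadjusted p = 0.537), against 0.74 for the one used. The second probe set of Mrpl51 had a limma unadjusted p of 0.0061, so by it Mrpl51 would have counted as lower. The numbers of higher and lower members thus depend on the probe set that stands for a gene. Near-identical processed pseudogenes of such genes may share probes, so which transcripts a probe set reads is uncertain where they disagree.

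Between the subunits, the median difference was 0.084 over the 48 large and 0.19 over the 29 small subunit members, so that large minus small was -0.11. Positive differences were found for 27 large (56.2%) and 19 small subunit members (65.5%), against 50.4% of all and 46.8% of brighter genes. With Mrps30 and Mrps18a counted in the large subunit, as structures place them, the medians were 0.090 over 50 and 0.19 over 27 members. By unadjusted p under 0.05, 6 of these 50 (12%) were higher and 3 (6%) lower. Of the 27, 2 (7.41%) were higher and 2 (7.41%) lower, against 3.25% and 7.21% of all genes. Within each array, the median level of the large minus that of the small subunit members was 0.13, 0.32 and 0.0054 across FLAG-SMN IP replicates 1 to 3, against 0.37 and 0.26 across the control replicates, and these values overlapped between the groups. With each gene first centred midway between its 2 group means, the same contrast was -0.071, -0.029 and -0.068, against 0.14 and 0.13, without overlap. Such centring sets a gene's 2 group means on opposite sides of 0, and the contrast was not tested. The quartiles of the member differences were -0.25 and 0.31 in the large and -0.12 and 0.43 in the small subunit. Without FLAG-SMN IP replicate 1 the medians were 0.017 and 0.24. Without FLAG-SMN IP replicate 2 or without control IP replicate 2 the large subunit median was -0.031 or -0.036.

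By ancestry, the 30 large subunit members with a bacterial counterpart had a median of 0.087. By unadjusted p under 0.05, 4 of them (13.3%) were higher and 2 (6.67%) lower. Among all genes these shares were 3.25% and 7.21%, and among the brighter genes 5.3% and 11.5%. The 18 that are mitochondria-specific had 0.041, with 1 higher and 1 lower (5.56% each). In the small subunit the 16 bacterial counterparts had 0.14, with 0 higher and 1 lower (6.25%). The 13 mitochondria-specific members had 0.26, with 3 higher (23.1%) and 1 lower (7.69%). These 13 include Mrps18a and Mrps30, which structures place in the large subunit, and Mrps30 was 1 of the 3 higher. Without FLAG-SMN IP replicate 1 these medians were 0.15 and -0.054 in the large subunit and 0.071 and 0.28 in the small subunit, so the sign for the large mitochondria-specific members turned on 1 array. By place in the large subunit, the stalk genes Mrpl10, Mrpl11 and Mrpl12 had differences of -0.10, 0.56 and 0.12. The 6 exit tunnel genes had a median of 0.19, which was 0.015 without FLAG-SMN IP replicate 1, and the 6 central protuberance genes one of -0.19. These places were assigned after the values were seen. Mrps36, counted here by its name, is now assigned to the 2-oxoglutarate dehydrogenase complex and had a difference of 0.26 (limma adjusted p = 0.954).

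The members varied most through FLAG-SMN IP replicate 1. It lay more than 1 log2 unit below the mean of replicates 2 and 3 for 12 members (15.6%) and more than 1 above for 6 (7.79%). Among all genes these shares were 2.86% and 2.57%, and among the brighter genes 4.94% and 4.44%. Over the 77 members its Pearson r was 0.759 and 0.802 with replicates 2 and 3, which had r = 0.961 with each other, and the control IP arrays had r = 0.965. These r values are across genes, which are not independent replicates, and carry no test.

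The members farthest apart in that array were singled out after their values were seen. Mrpl52 had 8.16 in FLAG-SMN IP replicate 1, against 10.72 and 9.99 in replicates 2 and 3, and the control IP arrays were at 10.12 and 10.24. Mrpl34 had 8.45, 9.99 and 10.13 in FLAG-SMN IP, against 10.32 and 10.86 in control IP, and its difference of -1.07 became -0.53 without replicate 1. Mrpl18 went the other way, with 10.28 in replicate 1 and 8.67 and 8.97 in replicates 2 and 3, against 8.90 and 8.84 in control IP. Mrpl24 had 10.29, 8.83 and 9.01, against 8.50 and 8.35, and its difference of 0.95 became 0.49. For Mrpl52 and Mrpl18 the difference changed sign without that array, to 0.17 and -0.052. The other members beyond 1 log2 unit were Mrpl33, Mrpl36, Mrpl37, Mrpl42, Mrpl54, Mrpl57, Mrps10, Mrps11, Mrps24 and Mrps36 on the low side and Mrpl9, Mrpl44, Mrpl45 and Mrps23 on the high side. Without replicate 1, 10 members were higher and 4 lower by unadjusted p under 0.05, as were 4.4% and 8.09% of all genes.

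**Figure D3:**
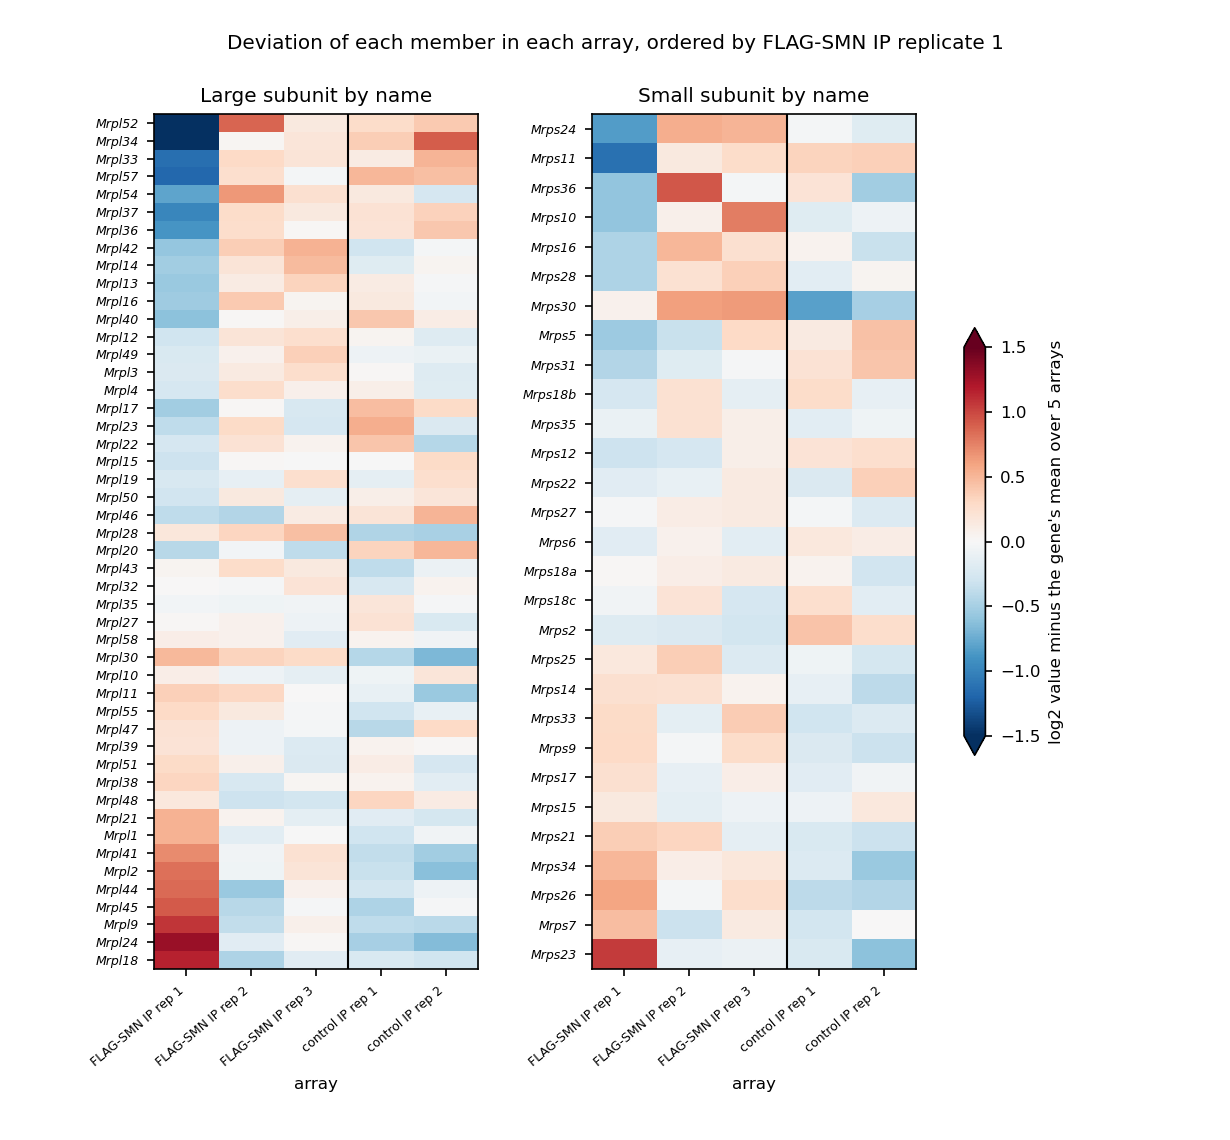
Colour gives each member's log2 value minus its mean over the 5 arrays (red above, blue below), with arrays in columns, FLAG-SMN IP left of the line and control IP right of it, and members ordered by replicate 1 minus the mean of replicates 2 and 3. The first column carries the strongest colours, with replicate 1 minus the mean of replicates 2 and 3 running from -2.19 in Mrpl52 to 1.46 in Mrpl18, and colours are capped at 1.5 in either direction.

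Genes that work with the mitochondrial ribosome were read from the same fit, and 0 of them passed the adjusted test. Of 7 listed ribosomal proteins with other names, 4 were measured, and Dap3, Ptcd3, Gadd45gip1 and Chchd1 had differences of 0.11, 0.061, -0.20 and -0.50, with 0 at an unadjusted p under 0.05, and without FLAG-SMN IP replicate 1 Chchd1 was at 0.24. Of 20 measured assembly factors, 2 were higher (10%) and 1 was lower (5%) at that level. These shares were 3.25% and 7.21% among all genes and 5.3% and 11.5% among brighter genes. The median of the assembly factors was -0.041, or 0.043 without FLAG-SMN IP replicate 1. The GTPase gene Mtg2 had 7.07, 7.30 and 7.25 in FLAG-SMN IP, against 6.41 and 6.52 in control IP (difference 0.74; limma adjusted p = 0.223), and Mpv17l2 had 9.12, 9.25 and 9.07, against 9.82 and 9.54 (difference -0.54; limma adjusted p = 0.376). The groups did not overlap in either gene, which selection by p favours.

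For the 12 translation factors the median was 0.18, or 0.052 without FLAG-SMN IP replicate 1. Of them 0 were higher and 1 was lower (8.33%, against 7.21% of all and 11.5% of brighter genes). That gene was Mtfmt, which formylates the initiator tRNA (difference -0.49; limma adjusted p = 0.425), followed by the translational activator gene Taco1 (0.64, or 0.31 without that array; limma adjusted p = 0.59). Of 16 measured mitochondrial tRNA synthetase genes 0 were higher and 2 lower (12.5%, against 7.21% of all and 11.5% of brighter genes). The lower genes were Sars2 (-0.79; limma adjusted p = 0.215) and Mars2 (-0.48; limma adjusted p = 0.457). The 12 mitochondrial RNA factors, led by Supv3l1 (0.30) and Pnpt1 (-0.27), had 0 in either direction and a median of 0.017. Among 5 genes for membrane insertion and quality control, Cox18 had a difference of -0.79 (limma adjusted p = 0.374) and Spg7 one of 0.69 (limma adjusted p = 0.51), which without replicate 1 was 0.44.

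Of 9 regulators of mitochondrial biogenesis, Esrra, which encodes the nuclear receptor ERR alpha, had the smallest p. It had 7.99, 8.19 and 8.49 in FLAG-SMN IP, against 6.79 and 6.78 in control IP, a difference of 1.44 (SE 0.21; 2.72-fold; limma adjusted p = 0.100). Every FLAG-SMN IP array was above both control arrays, which selection by p favours. Without FLAG-SMN IP replicate 1 Esrra passed, with a difference of 1.56 (limma adjusted p = 0.0214). In that fit 1.15% of all genes passed, against 0.0301% with replicate 1 kept. Myc was on the lower side (-0.60; limma adjusted p = 0.437). Gabpa and Nrf1, whose products bind the ETS and NRF1 motifs above, had differences of -0.020 and 0.11, which were 0.037 and 0.19 without replicate 1.

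The cytosolic ribosomal protein genes, the counterparts that translate in the cytosol, were set beside them. By unadjusted p under 0.05, 13 of 53 such genes (24.5%) were higher and 0 were lower, against 10.4% and 6.49% of the mitochondrial members. The same calls were made for 3.25% and 7.21% of all genes and for 5.3% and 11.5% of the brighter genes. Their median difference was 0.29, against 0.12, and 42 of 53 (79.2%) had a positive difference, against 46 of 77 (59.7%) and 50.4% of all genes. Rpl7 (1.09) and Rpl7a (1.64) had the smallest p-values, with limma adjusted p = 0.171 and 0.215. Rpl7a was at 5.58 and 4.58 in control IP, the latter near the presumed control median of that array (4.55). The difference between the families was not tested.

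**Figure D4:**
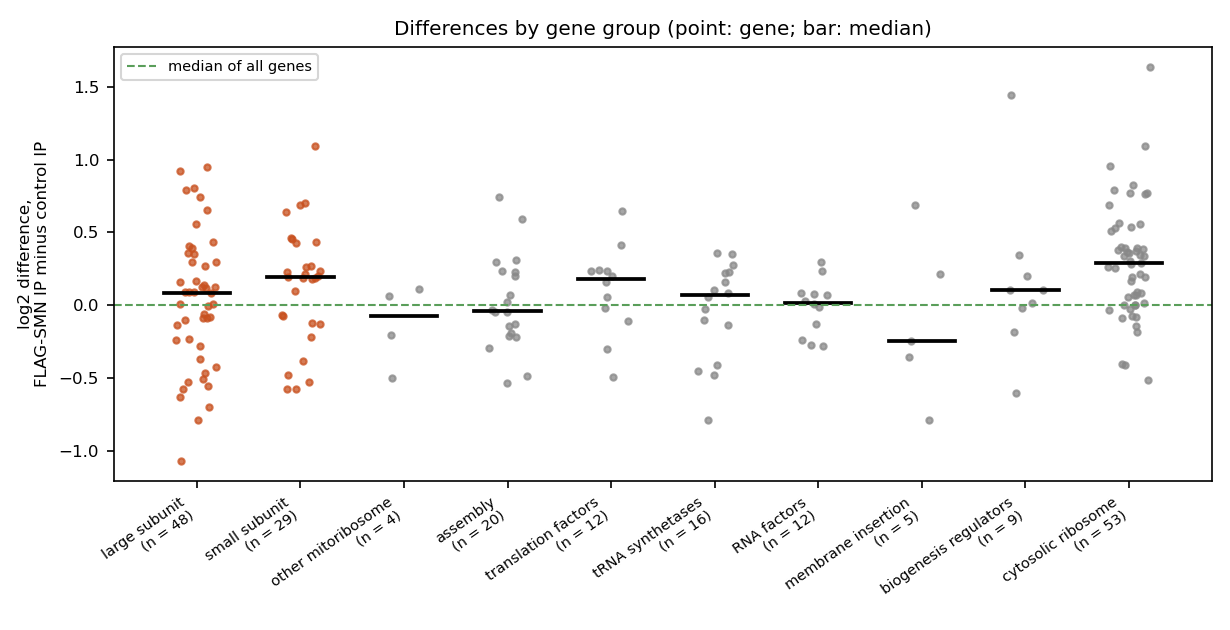
Each point is the log2 difference (FLAG-SMN IP minus control IP) of 1 gene, the bars are group medians and the dashed line is the median of all genes (0.0019). The large and small subunit members (orange) spread to both sides of 0, with medians of 0.084 and 0.19, and the cytosolic ribosomal protein genes at the right have a median of 0.29.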

How the data were processed

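Biotin-labelled RNA from 3 FLAG-SMN IP and 2 control IP samples was read on 1-colour arrays. The table the authors deposited holds log2 values (1.28 to 14.1). The submitters' processing notes name RMA; its version is not given in the sources. RMA draws arrays to a common distribution, so a general difference in recovered RNA is not visible. Groups come from the sample titles, and p-values rest on the spread between these samples alone, perhaps a technical one.

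Of 34760 probe sets, 6573 with IDs below the lowest annotated one were presumed to be controls and not tested. Symbols came from the platform annotation, and 77 of 77 members matched RefSeq (GRCm38.p6) by gene ID. limma 3.58.1 in R 4.3.3 (lmFit, eBayes, 2-sided, 3 residual and 3.8 prior degrees of freedom) was fitted to all 28187 probe sets with Benjamini-Hochberg adjustment and a threshold of 0.05. Tested on simulated data (28187 probe sets, 200 altered), adjusted p found 0.65% of shifts by 1 log2 unit and 49.2% of shifts by 2, and unadjusted p 87% and 97.4%. The altered probe sets were drawn from all 28187, with normal noise. Fewer member intervals lay within 1 log2 unit than among all genes (57.1% against 76.5%), so these rates need not hold for members.

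Members and lists were chosen with earlier results of these data known. Named members were, per subunit, the 8 of smallest unadjusted p and the 2 brightest and 2 dimmest, the Mrps18 paralogs and those with probe sets of opposite sign; per list of partner genes, the 2 of smallest p; others are said to be chosen later. Alternatives were cyclic loess, centring, a brightness minimum, all probe sets, trend and robust moderation, array weights, a replicate block, each array left out, averaged probe sets and subunit by structure. Figures used matplotlib 3.10.9 and Python 3.11.15.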

Additional observations from a re-analysis of the deposited data

How the results depend on the processing

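No member passed the adjusted test in any setting that kept all 5 arrays, and with 1 array left out the count was 0 to 1. With 1 array left out, the members at an unadjusted p under 0.05 numbered 3 to 11 higher and 1 to 5 lower; the 3 came without control IP replicate 2, and the 1 without either control array. Lower members numbered 3 under a brightness minimum and 3 under trend and robust moderation, against 5, and 12 were higher under cyclic loess, against 8. The large subunit median ran from -0.036 to 0.12 and the small subunit median from 0.11 to 0.24 with 1 array left out. Large minus small ran from -0.23 to -0.044 with 1 array left out and was -0.17 with array weights, -0.15 with averaged probe sets and -0.14 with the replicate number as a block. Its sign was negative in every setting run. Centring, a brightness minimum, all probe sets and trend and robust moderation left it at -0.11 by construction, so these settings do not test the sign. The causes were not tested. The block, which by construction drops FLAG-SMN IP replicate 3 because no control shares its number, left 0 members past the adjusted test. By unadjusted p under 0.05 it had 11 higher and 5 lower. Except for the fit without FLAG-SMN IP replicate 1, shares of all genes called in these settings are not given here. Whether the member counts follow the general rate of calls is therefore not known. Deviations of same-numbered arrays correlated at 0.13 and -0.20, and these 2 values do not show whether the numbers pair the samples. Of 208 values of named members in 8 settings other than leaving out an array by choice (the block among them), 204 kept direction and side and 4 changed sign: Mrpl27 with array weights (-0.014) and averaged probe sets (-0.034), Mrpl51 with averaged probe sets (-0.34) and Mrps18c with the block (0.032). By construction, a brightness minimum, all probe sets and trend and robust moderation leave every difference unchanged. Averaging alters only members with several probe sets. The values that could not change are counted in the 204, which is therefore no measure of stability. With 1 array left out, sign changes were seen in Mrpl27 (-0.22 to 0.23), Mrps18c (-0.28 to 0.13), Mrpl23 (-0.66 to 0.10), Mrps18b (-0.33 to 0.073), Mrpl47 (-0.27 to 0.45) and Mrpl51 (-0.058 to 0.31). The number of arrays limits what can be seen.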
